A study of Mus musculus with 24 samples.

Results

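Serpins are a superfamily of proteins named for the serine protease inhibitors among them, and their transcripts were followed through liver and kidney of C57BL/6 mice given the platinum drug cisplatin, the TLR5 agonist CBLB502, or both. The members are the 46 genes, of 33272 in the deposited table, whose symbol begins with Serpin, a clade letter from a to i and a digit, and whose transcript types include protein coding. Of 51 serpin rows of any type, 31 carry protein coding as their sole type, and 15 members carry it beside other types. Each tissue has 4 arms of 3 libraries, which makes 24 libraries: mice with no treatment (control), 0.2 mg/kg CBLB502, 20 mg/kg cisplatin, and both drugs (called the combination below), all given into the peritoneum. CBLB502 preceded cisplatin by 30 min and tissue was taken at 72 h. The labels give the controls no vehicle and no time, name no transgene or sorted cell, and do not tie a library to a mouse of its own. The spread behind the p-values may thus be technical.

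An inhibitory serpin offers its target protease an exposed reactive loop as bait, is cut there, and traps the protease in a covalent complex. The loop lies near the C-terminal end of the protein, and its residues set which protease is caught. Hepatocytes secrete most plasma serpins: the antitrypsins (Serpina1a to Serpina1e), relatives of antichymotrypsin (the Serpina3 genes), antithrombin, antiplasmin and the complement inhibitor Serping1. Several members inhibit nothing, such as the hormone carriers Serpina6 and Serpina7 and the collagen chaperone Serpinh1. Clade B members stay inside cells and guard against granule and lysosomal proteases.

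The 5 antitrypsin genes of the chromosome 12 cluster are shown first because most of them rose in both tissues below and because they can be confused with each other in counting. Their coding sequences share 91.4% to 96.7% of bases over the 10 pairs (GENCODE vM21, build GRCm38). The 60-base coding window in which they differ most lies at coding bases 1170 to 1229 of 1308 in Serpina1a and 1101 to 1160 of 1239 in Serpina1e. All 5 genes are on the minus strand, and capitals mark the 18 bases at which the genes differ, against 86 of 1239 aligned bases (6.9%) over the whole coding sequence.
Serpina1a, chr12:103853757-103853816: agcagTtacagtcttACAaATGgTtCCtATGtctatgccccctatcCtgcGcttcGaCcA
Serpina1b, chr12:103728324-103728383: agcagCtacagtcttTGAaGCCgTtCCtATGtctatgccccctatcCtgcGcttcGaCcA
Serpina1c, chr12:103895094-103895153: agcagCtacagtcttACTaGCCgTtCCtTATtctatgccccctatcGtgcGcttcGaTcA
Serpina1d, chr12:103763762-103763821: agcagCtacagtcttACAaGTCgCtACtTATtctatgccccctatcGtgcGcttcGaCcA
Serpina1e, chr12:103947100-103947159: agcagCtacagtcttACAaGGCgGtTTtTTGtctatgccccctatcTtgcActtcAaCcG
Reads from stretches that the copies share can be assigned to the wrong copy, so values of single antitrypsin genes are uncertain.

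Upstream of the start sites the antitrypsin genes differ more, at 58.0% to 91.0% identity over the same 10 pairs (250 bases before the start, RefSeq, GRCm38.p6). The promoter table matched 38 of the 46 members, with 45 promoters. Each of the 5 promoters holds GTTAAT, a short element of the kind bound by hepatocyte nuclear factor HNF1, searched on both strands and shown in capitals within 120 bases of 3 of them. The same letters stand in 6.43% of 32851 mouse promoters of that length and in promoters of 8 of the 38 members. A match is a description of the letters and not a site.
Serpina1a, chr12:103863620-103863739: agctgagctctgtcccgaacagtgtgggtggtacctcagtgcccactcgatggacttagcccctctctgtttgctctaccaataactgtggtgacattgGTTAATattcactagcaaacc
Serpina1d, chr12:103773634-103773753: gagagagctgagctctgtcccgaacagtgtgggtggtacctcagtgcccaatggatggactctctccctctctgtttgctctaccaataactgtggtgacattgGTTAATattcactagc
Serpina1e, chr12:103956898-103957017: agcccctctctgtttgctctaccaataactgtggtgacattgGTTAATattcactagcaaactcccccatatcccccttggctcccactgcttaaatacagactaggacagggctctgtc

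For the Serpina3 genes, the letters TTCNNNGAA (a STAT-type element, which reads the same on both strands) are found in promoters of Serpina3f, Serpina3g and Serpina3i, neighbours whose cisplatin libraries differed widely in liver below. They are shown in capitals within 130 bases of each promoter, on the plus strand. These letters stand in 7.02% of all promoters and in 7 of the 38 members in the promoter table. Serpina3c, Serpina3k, Serpina3m and Serpina3n, called higher with cisplatin in liver below, are not among those 7. The promoter table did not match every member, and a link of the letters to the response was not tested.
Serpina3f, chr12:104214414-104214543: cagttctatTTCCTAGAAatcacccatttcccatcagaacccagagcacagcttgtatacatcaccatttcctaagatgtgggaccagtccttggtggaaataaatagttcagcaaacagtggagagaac
Serpina3g, chr12:104236017-104236146: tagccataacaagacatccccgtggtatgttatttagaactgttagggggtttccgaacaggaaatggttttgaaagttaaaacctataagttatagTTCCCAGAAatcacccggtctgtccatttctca
Serpina3i, chr12:104262992-104263121: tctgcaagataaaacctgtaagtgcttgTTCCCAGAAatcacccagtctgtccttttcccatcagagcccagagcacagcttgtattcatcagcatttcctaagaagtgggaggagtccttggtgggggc

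Levels are CPM, counts per M (M for mega) on scaled library sizes, and are given for libraries 1, 2 and 3 in that order, or columns 4, 5 and 6 of treated kidney. "Called" means an adjusted p under 0.05 in edgeR's quasi-likelihood test over all tested genes, and ± after a log2 fold change is its SE. Library totals ran from 40.58 to 77.54 M counts. In the controls most of these fell on mitochondrial genes and their nuclear copies, so that the remaining genes had 2.819 to 4.649 M counts in liver and 5.054 to 10.14 M in kidney, whereas every treated library had at least 44 M. Every comparison with control therefore also compares these kinds of library, and the part of this difference in the results cannot be told apart from treatment. Liver cisplatin library 3 and kidney cisplatin library 6 stood apart from their groups. Results below without either of them follow a choice made from these data, and their p-values carry this limit. The labelled tissues carried their markers: 6 hepatocyte genes summed to at least 11690 CPM in liver and at most 242.7 in kidney, and 6 proximal tubule genes to at least 4925 CPM in kidney and at most 38.86 in liver. In whole-organ RNA, fewer cells of a type and less RNA per cell cannot be told apart. Counts of Serpina3k and Serpina3m, which overlap each other on the same strand, and of Serpina9, Serpina11, Serpina3g and Serpinc1, which overlap other annotated genes on theirs, are uncertain as well. So are those of Serpina1c, Serpinb6a, Serpind1 and Serpine3, which overlap genes on the other strand, since no strand setting is given in the sources used here.

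Serpins took 4.09% ± 0.647 (SD, n = 3) of the non-mitochondrial counts in control liver, 4.95% ± 0.234 after CBLB502, 7.1% ± 2.13 after cisplatin and 5.75% ± 0.229 after the combination. In kidney the share ran from 0.0936% to 0.17% over all 12 libraries. Per length (CPM per kb of the longest coding transcript), the most abundant serpins of control liver were Serpina1e at 1964 ± 750 and Serpina1c at 1858 ± 83.8, with overlapping spreads. Serpina3k led the cisplatin libraries at 8809 ± 3373 and the combination at 5673 ± 204, both on the per-length scale. Control kidney was led by Serping1 at 61 ± 27.3, Serpinh1 at 44.2 ± 17 and Serpinf2 at 31.2 ± 8.27 CPM per kb, whose spreads overlap. Treated kidney was led by Serpina1d, at 80.3 ± 21.6 after CBLB502, 150 ± 66.4 after cisplatin and 165 ± 8.09 after the combination. At the other end, 12 members in liver and 14 in kidney did not pass the filter on low counts, 10 of them in neither tissue. These are Serpina3a, Serpina3j, Serpinb12, Serpinb1b, Serpinb1c, Serpinb2, Serpinb3c, Serpinb6c, Serpinb9b and Serpine3, with at most 91 counts each over all 24 libraries.

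Cisplatin on its own was compared with no treatment in liver. Of 34 tested serpins 17 were higher, against 25.6% of all 17931 tested genes, and 2 were lower, against 17.5% of all genes. Their median log2 fold change was 1.37, beside 0.09 over all genes. Most of the tested Serpina3 genes rose: Serpina3c, Serpina3f, Serpina3k, Serpina3m and Serpina3n were higher, while Serpina3g and Serpina3i were not called. Serpina3n (ENSMUSG00000021091, chromosome 12, 104406729 to 104414329, plus strand), an inhibitor of granzyme B and other serine proteases that is secreted in the acute phase, stood at 70.3, 78.6 and 96.1 CPM in control libraries and at 11320, 9185 and 939 with cisplatin. Library 3 was far below the others and still above every control, and the means gave a 87.5-fold rise (log2 fold change 6.45 ± 0.77, adjusted p = 6.62e-05). Serpina3m, a liver-secreted relative, read 25, 18.2 and 25.4 CPM and then 1903, 1427 and 535, 56.4-fold higher (5.82 ± 0.49, adjusted p = 9.06e-06). Serpina3k (ENSMUSG00000058207, chromosome 12, 104338486 to 104346144, plus strand), also called kallikrein-binding protein, started far higher, at 2057, 1063 and 1610 CPM, and reached 21590, 22640 and 10130 (11.5-fold, 3.52 ± 0.36, adjusted p = 2.76e-05). In none of these 3 genes did the groups overlap, and called genes without overlap made up 37.7% of all tested genes. Serpina3f was at 1.01, 0.31 and 1.31 CPM in controls and 52.2, 7.5 and 1.28 with cisplatin, so that library 3 lay inside the control range (4.57 ± 1.16, adjusted p = 0.00806). Serpina3g read 8.28, 4.03 and 6.44 CPM and 3.13, 29 and 2.42, with library 2 alone above the controls. Serpina3i had no count in any control library and 11.1, 7.69 and 0 CPM with cisplatin, at least 68.4-fold higher over the group against a floor of 3 counts, but was not called (adjusted p = 0.0536).

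The antitrypsins Serpina1a to Serpina1d, which protect tissue from neutrophil elastase, rose as a block in cisplatin liver. Serpina1b (ENSMUSG00000071178, chromosome 12, 103728156 to 103740515, minus strand) went from 1506, 1780 and 1413 CPM to 6505, 6526 and 3853, 3.59-fold (1.84 ± 0.25, adjusted p = 0.000166). The others rose 2.54-fold (Serpina1a), 2.24-fold (Serpina1c) and 2.34-fold (Serpina1d), with library 3 again the lowest of its group. Serpina1e (ENSMUSG00000072849, chromosome 12, 103946931 to 103958975, minus strand) split the group: 8866, 6567 and 469 CPM with cisplatin, against 3431, 4071 and 1780 in controls. Library 3 thus lay below every control and the others above, and the gene was not called (0.78 ± 0.73, adjusted p = 0.408). Without library 3 it was higher (1.35 ± 0.37, adjusted p = 0.0113). Serpina10 (ENSMUSG00000061947, chromosome 12, 103614786 to 103631444, minus strand), the protein Z-dependent inhibitor of factor Xa, stood at 30.1, 42.6 and 42.2 CPM in controls and 639, 469 and 277 with cisplatin, with no overlap and a 12.1-fold rise (3.59 ± 0.31, adjusted p = 9.83e-06). Serpina12 (vaspin, an insulin-sensitising adipokine) rose 4.12-fold, though its library 3, at 6.54 CPM, lay among the controls at 5.15, 9.44 and 3.52. Serpina11 rose 3.11-fold (1.64 ± 0.38, adjusted p = 0.00476).

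Of the hormone carriers, Serpina7 rose and Serpina6 was not called. Serpina7 (ENSMUSG00000031271, chromosome X, 139079257 to 139085217, minus strand), thyroxine-binding globulin, read 4.74, 22.6 and 4.43 CPM in controls and 258, 340 and 15.5 with cisplatin, 19.3-fold higher on the means (4.26 ± 1.03, adjusted p = 0.00624). Library 3 lay inside the control range. Serpina6 (ENSMUSG00000060807, chromosome 12, 103646630 to 103657212, minus strand), corticosteroid-binding globulin, read 44, 89 and 22.8 CPM in controls and 0.157, 0.131 and 47.1 with cisplatin. Its transcript was nearly absent from libraries 1 and 2 and at a control level in library 3, so it was not called with all libraries (-1.72 ± 1.46, adjusted p = 0.358). Without library 3 it was lower (-8.46 ± 0.66, adjusted p = 2.15e-06).

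Among the serpins of clotting and fibrinolysis, Serpinf2 (ENSMUSG00000038224, chromosome 11, 75431732 to 75439578, minus strand), the plasmin inhibitor antiplasmin, rose from 145, 203 and 199 CPM to 943, 803 and 667, 4.41-fold (2.14 ± 0.22, adjusted p = 2.85e-05), with close libraries and no overlap. Serpinc1, antithrombin, rose 2.63-fold, from 399, 450 and 326 to 713, 818 and 1565 CPM, and here library 3 was the highest. The same order was seen in Serpind1, heparin cofactor II, at 69.8, 50.6 and 362 CPM with cisplatin against 60.3, 55.3 and 56.9 in controls: libraries 1 and 2 were near the control level, and the gene was not called (1.49 ± 0.57, adjusted p = 0.0543). Serpine2, protease nexin-1, was low in both arms, at 7.67, 1.01 and 2.01 and 1.4, 2.3 and 1.31 CPM, and not called (adjusted p = 0.197).

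Serping1 (ENSMUSG00000023224, chromosome 2, 84765387 to 84775444, minus strand), the inhibitor of the complement proteases C1r and C1s, had close libraries in both arms: 169, 175 and 186 CPM in controls and 535, 531 and 600 with cisplatin, 3.14-fold higher (1.65 ± 0.18, adjusted p = 3.59e-05). The 2 serpins that fell were Serpinh1 and Serpina9. Serpinh1 (ENSMUSG00000070436, chromosome 7, 99345376 to 99353239, minus strand), the collagen chaperone HSP47, dropped from 23, 7.82 and 4.83 CPM to 1.1, 1.38 and 1.26, 9.55-fold lower (-3.25 ± 0.52, adjusted p = 0.000482). All 6 stromal markers fell in the same comparison, their sum going from 50.72 to 259.6 CPM over the controls to 13.34 to 17.4, and their part in the Serpinh1 result was not tested. Serpina9, a serpin of germinal-centre B cells, was at 3.03, 5.26 and 6.24 CPM in controls and 0.0786, 0.545 and 0 with cisplatin (-4.54 ± 1.31, adjusted p = 0.0152). All 4 B cell markers fell beside it, from a sum of 13.48 to 21.29 CPM to at most 0.4715, with Ms4a1 at 0 in every cisplatin library. With CBLB502 alone the B cell sum was 2.595 to 4.582 CPM and 2 of 4 markers were lower, while Serpina9 was not called. The part of B cells in the Serpina9 result was not tested. Serpinf1, the anti-angiogenic factor PEDF, was not called with all libraries (160, 136 and 125 CPM in controls and 72.8, 80.3 and 228 with cisplatin) and was lower without library 3 (-0.85 ± 0.18, adjusted p = 0.00205). Of the clade B members tested, Serpinb1a, Serpinb6a, Serpinb6b, Serpinb8 and Serpinb9, none was called in this comparison with all libraries. All 6 hepatocyte markers rose in the same comparison (median log2 fold change 1.92), their sum going from 11690 to 24800 CPM in controls to 52860 to 77650, and their part in the serpins that rose was not tested. Without library 3, 24 serpins were called, 19 higher against 26.1% of all genes and 5 lower against 20.6%; the added calls were Serpina1e and Serpina3i higher and Serpina6, Serpinb1a and Serpinf1 lower. With median-of-ratios scaling the median of all genes moved from 0.09 to -0.14, and the genes called went from 4588 higher and 3139 lower to 3732 higher and 3795 lower.

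**Figure D1:**
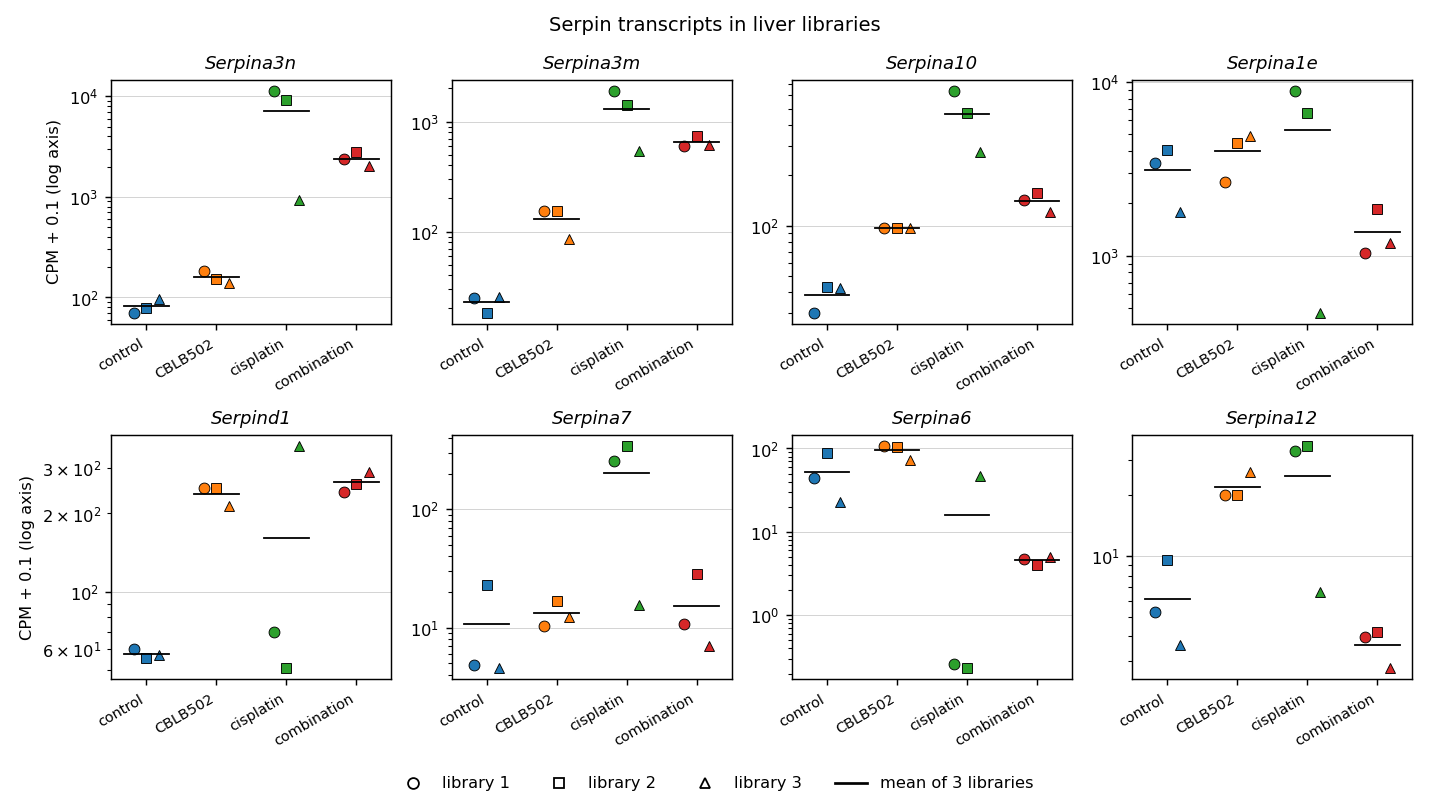
Levels of 8 serpin transcripts in the 12 liver libraries, as CPM plus 0.1 on a log axis, by arm; each point is a library, its shape gives the library number and the black line is the mean of 3. Cisplatin library 3 lies below libraries 1 and 2 for Serpina3n, Serpina1e, Serpina7 and Serpina12 and above them for Serpina6 and Serpind1.

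With CBLB502 alone in liver 10 of the 34 tested serpins were higher, against 18.3% of all genes, and none lower, against 9.48%. An unadjusted p under 0.05 in edgeR was seen in 14, a count given without its share of all genes. The median log2 fold change of the tested serpins was 0.87, beside 0.14 over all genes. Serpina3m rose most of those called, to 155, 154 and 84.9 CPM (5.74-fold over control, 2.52 ± 0.42, adjusted p = 0.00123), and Serpina3k rose to 5199, 5584 and 5584 CPM (3.46-fold, 1.79 ± 0.34, adjusted p = 0.00263). Serpina3n, at 184, 153 and 140 CPM, lay above every control library but was not called (adjusted p = 0.266). Serpind1 rose 4.14-fold to 251, 250 and 213 CPM, Serpinc1 2.42-fold to 963, 1003 and 879, and Serpinf2 2.21-fold to 435, 424 and 351. Serping1 rose 2-fold to 355, 345 and 360 CPM (adjusted p = 0.00164), and Serpina10 rose 2.52-fold to 96.4, 96.4 and 96.8 CPM (1.33 ± 0.28, adjusted p = 0.005). The remaining calls were Serpina12 (3.65-fold), Serpina1b (1.83-fold) and Serpina1d (1.74-fold). With 1 library left out, the call of Serpind1 was lost in 5 of 6 fits, all but that without CBLB502 library 3 (highest adjusted p = 0.0639). That of Serpina1b was lost without control library 1 or 3 or CBLB502 library 1 or 2 (highest adjusted p = 0.063), and that of Serpina12 without control library 1 or 3 or CBLB502 library 3 (highest adjusted p = 0.0821). Hepatocyte markers rose in the same comparison (4 of 6), their sum going from 11690 to 24800 CPM to 42100 to 53210, and their part was not tested. With median-of-ratios scaling in place of TMM, the median of all genes moved from 0.14 to -0.1 and the genes called went from 3284 higher and 1700 lower to 2341 higher and 2335 lower; Serpina1b and Serpina1d were then not called, and no called result of a named serpin reversed.

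In liver, the combination against cisplatin asked whether CBLB502 given first altered the response to the drug. None of the 34 tested serpins was higher, against 0.993% of all genes, and 4 were lower, against 2.58%. An unadjusted p under 0.05 in edgeR was seen in 12, a count given without its share of all genes. Serpina10 stood at 143, 156 and 121 CPM in the combination and 639, 469 and 277 with cisplatin, with no overlap and a 3.29-fold difference (-1.72 ± 0.29, adjusted p = 0.0132). Serpina12 read 3.85, 4.08 and 2.67 CPM, of which 2.67 lay below every control and the others inside the control range. It was 7.04-fold lower than with cisplatin (-2.82 ± 0.54, adjusted p = 0.0211). Serpina3f, at 0.203, 0.238 and 0.287 CPM, was 83.8-fold lower (-6.38 ± 1.19, adjusted p = 0.0193) and Serpina3g, at 0.431, 0.531 and 1.27, 15.5-fold lower (-3.95 ± 0.93, adjusted p = 0.043). Serpina3g is known from blood cells as well, and 2 of 7 macrophage and 2 of 6 tested neutrophil markers were lower in the same comparison, with no B cell or T and NK cell marker called: the sum of 7 macrophage markers was 517.7, 213.8 and 68.18 CPM with cisplatin and 15.55 to 22.43 in the combination, and that of 10 neutrophil markers 29.75, 40.51 and 2.27 against 0.2114 to 0.8153, with Ngp, Camp and Ltf at 0 in the combination. Their part in these results was not tested. All 4 calls were lost when either the fit held the libraries of these arms alone or any 1 combination library was left out.

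The number of serpins called between these arms also depended on cisplatin library 3, singled out here because it stood apart in these data. Without it cisplatin rested on libraries 1 and 2, and the p-values of that fit follow a choice made from the data. In that fit 16 serpins were lower, against 10.6% of all genes, and 3 higher, against 12.5%, which makes 19 in place of 4. With all libraries those shares of all genes were 2.58% and 0.993%. Serpina3n fell without library 3 (-2.09 ± 0.21, adjusted p = 8.61e-05); its combination libraries, at 2356, 2772 and 2042 CPM, lay between library 3 and the other cisplatin libraries and lay above every control. Serpina1e, at 1038, 1852 and 1184 CPM, was also lower (-2.49 ± 0.38, adjusted p = 0.000846), as was Serpina7 at 10.7, 28.2 and 6.94 CPM (-4.28 ± 0.71, adjusted p = 0.00145). Serpina6 turned direction, from -1.81 ± 1.46, adjusted p = 0.534 with all libraries to 4.96 ± 0.59, adjusted p = 0.000206 without library 3; its combination libraries at 4.64, 3.88 and 4.95 CPM lay above libraries 1 and 2 and below library 3. Serpind1, at 242, 259 and 290 CPM, and Serpinf1, at 181, 179 and 220, were the other 2 that were higher (2.14 ± 0.19, adjusted p = 4.73e-05, and 1.35 ± 0.18, adjusted p = 0.000371). Serping1 and Serpina1d did not pass the test in either fit: their log2 fold changes with all libraries were 0.02 ± 0.17, adjusted p = 0.975, and 0.13 ± 0.20, adjusted p = 0.778.

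**Figure D2:**
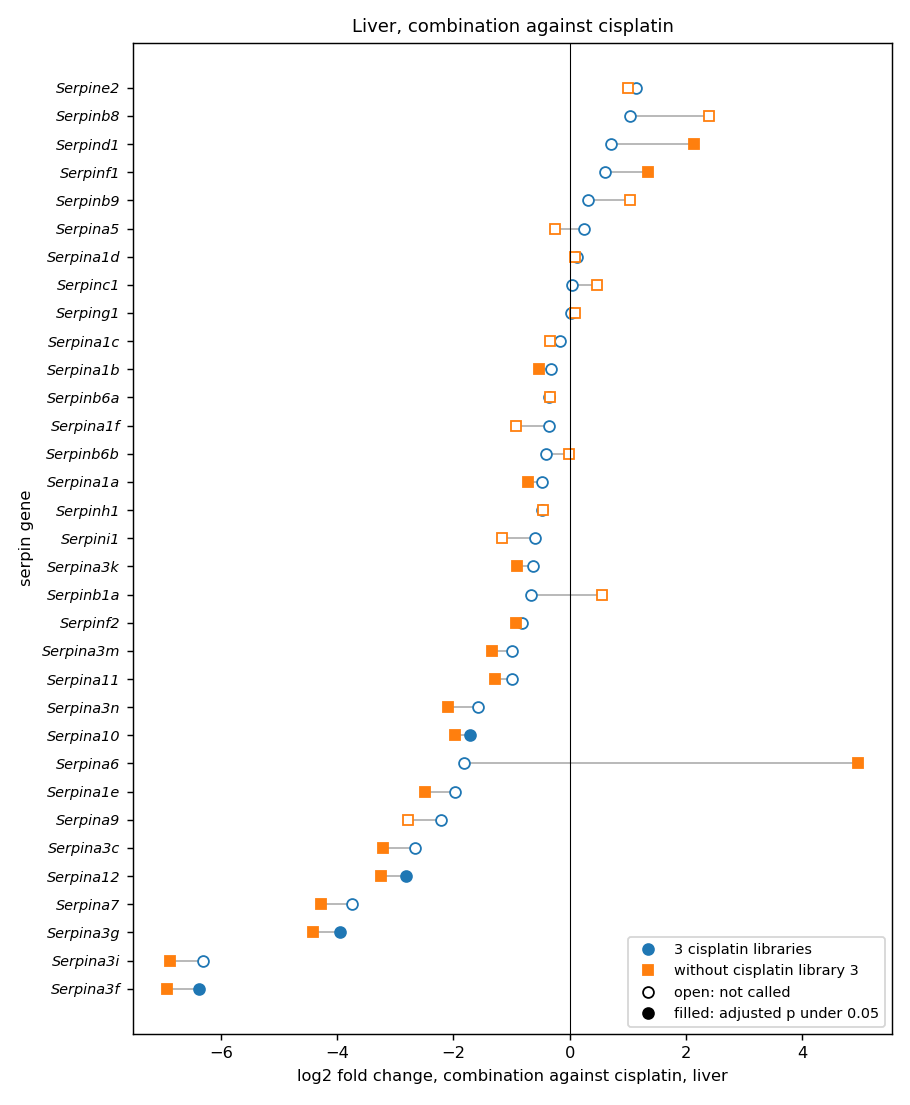
Log2 fold change of 33 tested serpin genes in liver, combination against cisplatin, with all 3 cisplatin libraries (blue circles) and without library 3 (orange squares); filled symbols have an adjusted p under 0.05. With all libraries 4 symbols are filled and without library 3 there are 18, and Serpina6 moves from -1.81 to 4.96.

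The combination against CBLB502 in liver holds CBLB502 on both sides, and neither side holds a control library. The controls still entered the filter, the scaling and the shared spread of the fit. This comparison called 3 serpins higher of 34, against 2.88% of all genes, and 3 lower, against 3.86%. Serpina3n was at 2356, 2772 and 2042 CPM in the combination and 184, 153 and 140 with CBLB502, 15-fold higher (3.91 ± 0.68, adjusted p = 0.00649), and Serpina3m at 603, 737 and 615 against 155, 154 and 84.9, 4.97-fold higher (2.31 ± 0.42, adjusted p = 0.0074). Serping1 was 1.59-fold higher (0.67 ± 0.17, adjusted p = 0.0419). Serpinh1 fell from 6.66, 5.2 and 4.59 CPM to 0.6, 0.843 and 1.25, 6.11-fold (-2.61 ± 0.51, adjusted p = 0.011), beside 4 of 6 stromal markers, and Serpina12 fell from 19.9, 20 and 26.2 to 3.85, 4.08 and 2.67 CPM (-2.64 ± 0.54, adjusted p = 0.0142). Serpina9 fell from 1.88, 5.68 and 1.95 to 0.102, 0.0275 and 0 CPM (-6.14 ± 1.44, adjusted p = 0.0271), beside 3 of 4 B cell markers. In none of the 6 did the groups overlap, and called genes without overlap made up 6.74% of all tested genes. Serpina6, at 4.64, 3.88 and 4.95 against 106, 105 and 72.8 CPM, did not overlap either but was not called (adjusted p = 0.142). The calls were sensitive to single libraries: 2 to 4 serpins were called with any 1 library of these arms left out, and Serping1 and Serpina9 were lost each time. That range is given without the share of all genes in those fits.

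In kidney, cisplatin against control called 15 of 32 tested serpins higher, against 24.1% of all 20341 genes, and 6 lower, against 15.2%. Their median log2 fold change was 1.48, beside 0.06 over all genes. The antitrypsin genes Serpina1a to Serpina1e and their relative Serpina1f all rose. Serpina1d (ENSMUSG00000071177, chromosome 12, 103763594 to 103773592, minus strand) stood at 13.9, 26.2 and 15.9 CPM in controls and 291, 109 and 227 with cisplatin, 11.2-fold higher (3.48 ± 0.38, adjusted p = 5.45e-05). Serpina1f (ENSMUSG00000021081, chromosome 12, 103688044 to 103695529, minus strand), a divergent member of the cluster, went from 22, 29.4 and 18 to 163, 95 and 183 CPM, 6.36-fold (2.67 ± 0.31, adjusted p = 8.6e-05). Serpina1a, Serpina1b, Serpina1c and Serpina1e rose 5.6-fold, 9.15-fold, 6.62-fold and 5.45-fold, with no overlap in any of them. Called genes without overlap made up 35.4% of all tested genes. Serpina10 was at 0.423, 0 and 0 CPM in controls, a total of 5 counts, and at 40.6, 19 and 4.34 with cisplatin, 151-fold higher on the means (7.74 ± 1.09, adjusted p = 0.000282), with column 6 the lowest. Serpina3m had no count in control kidney and 8.84, 5.37 and 2.27 CPM with cisplatin, at least 102-fold higher over the group (adjusted p = 0.00109). Serpina3k rose 6.29-fold to 25.1, 44.6 and 30.4 CPM (2.68 ± 0.69, adjusted p = 0.00947). Serpina7 rose to 1.67, 2.21 and 0.46 CPM (3.11 ± 0.87, adjusted p = 0.0146) and Serpinc1 to 4.48, 4.86 and 3.01 (1.33 ± 0.46, adjusted p = 0.0394), a call lost without control library 1 or 2 or cisplatin column 4 or 5 (highest adjusted p = 0.111). The call of Serpina7 was lost without column 5 (adjusted p = 0.0516). Serpina3n, at 14.3, 0 and 2.03 CPM in controls and 47.9, 34.4 and 13.4 with cisplatin, was not called with all libraries (adjusted p = 0.0826) and was higher without column 6 (3.02 ± 1.07, adjusted p = 0.0335).

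Transcripts of hepatocytes were present at low levels in these kidney libraries and moved in the same direction. The 6 hepatocyte markers summed to 25.54 to 68.63 CPM in control kidney and 119.8 to 242.7 in treated kidney, with Asgr1 at 0 in all controls, and 5 of the 6 rose with cisplatin. In cisplatin kidney these markers stood at 0.0911% to 1.14% of their level in cisplatin liver, with a median of 0.145%. Serpina3k was at 0.0903%, Serpina1e at 0.12% and Serpina1a at 0.827% of the liver level on the same scale, below the highest marker (Ttr). Next to Ttr the highest marker was Cps1, at 0.189%. Serpina3k and Serpina1e lay below Cps1, whereas Serpina1a, Serpina1b (0.385%) and Serpina1c (0.377%) lay between Cps1 and Ttr. So did Serpina7 (0.345%), and Serpina3m (0.208%) and Serpinc1 (0.194%), which were close to Cps1. Serpina10 at 2.24%, Serpina1d at 4.15% and Serpinf2 at 12% were above every marker, and Serpina1f was far higher in kidney than in liver. The part of liver RNA in any of these serpins was not tested.

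Serpinf2 rose in kidney too, from 50.4, 86.6 and 68.4 to 248, 195 and 150 CPM (2.89-fold, 1.53 ± 0.23, adjusted p = 0.000435). Serpinb1a (ENSMUSG00000044734, chromosome 13, 32842092 to 32851185, minus strand), a guard against neutrophil elastase, rose most in columns 4 and 5: 8.03, 6.11 and 5.87 CPM, then 51.6, 48 and 9.04, 5.42-fold higher (2.45 ± 0.49, adjusted p = 0.00235). Serpinb6a (ENSMUSG00000060147, chromosome 13, 33917918 to 34002794, minus strand), an intracellular inhibitor of cathepsin G, went from 20, 13.9 and 18.3 to 51.6, 66.7 and 23 CPM (2.7-fold, 1.44 ± 0.31, adjusted p = 0.00355). In both genes column 6 was the lowest cisplatin library and above every control. The sums of macrophage and neutrophil markers were lowest in column 6 as well: macrophage sums of 436.4, 277 and 40.1 CPM and neutrophil sums of 6.552, 27.96 and 1.238 in columns 4, 5 and 6, against 32.31 to 49.98 and 2.701 to 3.637 in controls, with the macrophage markers Vsig4 and Marco and the neutrophil marker Mpo at 0 in the cisplatin libraries. In this comparison 1 of 4 tested macrophage markers was called higher and 0 lower. Of 6 tested neutrophil markers 1 was higher and 1 lower, so the sums do not describe every marker. The part of these cells in the Serpinb1a and Serpinb6a results was not tested. Serpinb9, which blocks granzyme B, read 20.6, 30 and 15.2 and 22.9, 16.4 and 19 CPM and was not called (adjusted p = 0.578).

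Of the kidney serpins that fell with cisplatin, Serping1 fell from 163, 83.2 and 76.6 CPM to 10.2, 19.6 and 28.8, 5.52-fold (-2.46 ± 0.43, adjusted p = 0.0011). Serpinf1 (ENSMUSG00000000753, chromosome 11, 75409769 to 75422701, minus strand) fell from 8.63, 3.69 and 4.1 to 0.26, 0.342 and 1.02 CPM, 10.1-fold (-3.32 ± 0.61, adjusted p = 0.00142). Serpinh1 fell 2.04-fold, from 144, 85.9 and 71.2 to 52.3, 42.3 and 53.2 CPM (-1.03 ± 0.24, adjusted p = 0.00643), and Serpini1, neuroserpin, 3.27-fold to 0.401, 1.16 and 1.47 CPM (-1.71 ± 0.43, adjusted p = 0.00865). In these 4 the groups did not overlap, beside 35.4% of all tested genes that were called either way without overlap. All 6 stromal markers fell too, from a sum of 375.6 to 572.8 CPM to 16.95 to 60.82, and 5 of 6 endothelial markers, from 184.3 to 306.1 CPM to 8.187 to 77.4. Column 6 was highest of the cisplatin libraries in both sums and in Serping1, Serpinf1 and Serpini1, and the part of these cells in the results was not tested. Serpinb8, an inhibitor of furin-like proteases, fell 1.93-fold with overlap (-0.95 ± 0.30, adjusted p = 0.0262), and its call was lost without control library 1 or 2 or cisplatin column 4 or 5 (highest adjusted p = 0.0907). Serpina3b was called lower, with overlap, at 11.9, 0 and 0.519 CPM in controls.

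**Figure D3:**
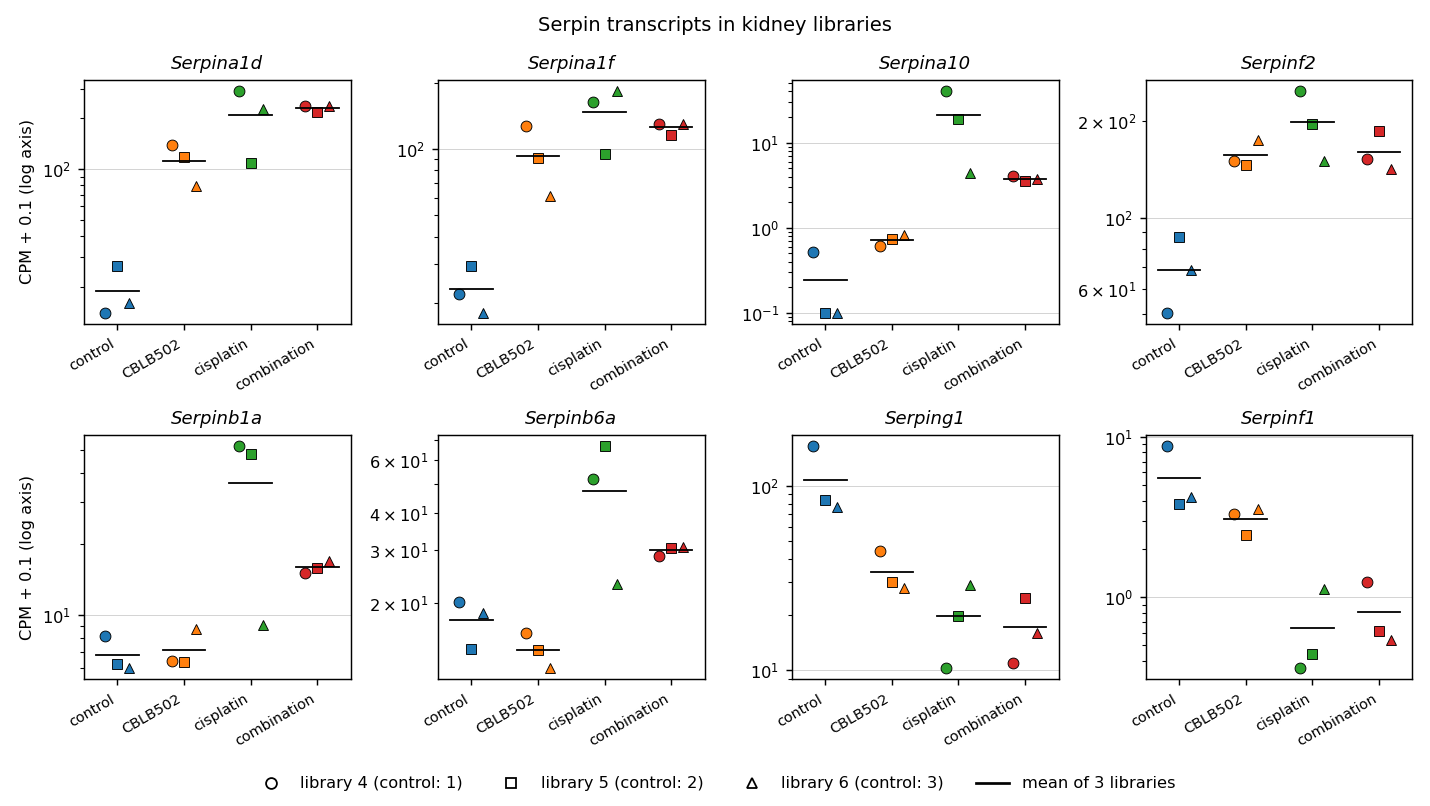
Levels of 8 serpin transcripts in the 12 kidney libraries, as CPM plus 0.1 on a log axis, by arm; each point is a library, its shape gives the column number and the black line is the mean of 3. Serpina1d and Serpina1f are high in all treated arms, Serpina10 and Serpinb1a are highest in cisplatin columns 4 and 5, and Serping1 and Serpinf1 are highest in controls.

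CBLB502 alone in kidney called 7 serpins higher of 32, against 11.4% of all genes, and 1 lower, against 7.77%. The 7 were the antitrypsin genes Serpina1a to Serpina1e, their relative Serpina1f, and Serpinf2. Serpina1d rose to 139, 118 and 79.4 CPM (5.99-fold over control, 2.58 ± 0.36, adjusted p = 0.000753) and Serpina1f to 127, 90.7 and 61.3 (4.02-fold, 2.01 ± 0.30, adjusted p = 0.00118). The rises of Serpina1a, Serpina1b, Serpina1c and Serpina1e were 2.96-fold, 4.52-fold, 4.03-fold and 5.54-fold, and Serpinf2 rose 2.29-fold to 150, 146 and 174 CPM. Serping1 fell to 44.2, 30.1 and 27.8 CPM, 3.17-fold (-1.66 ± 0.42, adjusted p = 0.018). The median of the tested serpins was 0.03, beside 0.05 over all genes. Serpinb1a, at 6.34, 6.23 and 8.64 CPM, and Serpinb6a, at 15.7, 13.8 and 12, overlapped their controls. Hepatocyte markers moved here as well (4 of 6 higher, sums of 130.3 to 194.9 CPM), and 2 of 6 stromal markers fell. Markers of the proximal tubule (3 of 6), of the distal tubule and collecting duct (2 of 4) and of podocytes (2 of 3) rose too, and the part of these cells was not tested. The call of Serping1 was lost without control library 1, CBLB502 column 5 or column 6 (highest adjusted p = 0.0803).

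In kidney, the combination against cisplatin called no serpin of 32 in edgeR with all libraries, against 0.00492% of all genes higher and 0% lower. There 7 serpins had an unadjusted p under 0.05 in edgeR and DESeq2 called 3. Both counts are given without their share of all genes and do not set serpins against other genes. The edgeR count depended on column 6, which stood apart in these data, and without it cisplatin rested on columns 4 and 5. Without it 5 serpins were lower, against 10.3% of all genes, and 0 higher, against 12%. Serpina10, at 3.94, 3.48 and 3.62 CPM, was lower (-3.01 ± 0.48, adjusted p = 0.00108), as were Serpinb1a at 15, 15.8 and 16.8 CPM (-1.65 ± 0.18, adjusted p = 7.93e-05) and Serpinb6a at 28.6, 30.3 and 30.5 (-0.99 ± 0.17, adjusted p = 0.002), and Serpina3g at 0.418, 0.773 and 0.528 CPM (-2.34 ± 0.61, adjusted p = 0.0172). In each of these the 3 combination libraries lay close together and below columns 4 and 5. No antitrypsin gene was called with or without column 6: Serpina1d stood at 236, 216 and 236 CPM in the combination and 291, 109 and 227 with cisplatin (0.14 ± 0.34, adjusted p = 0.921). Macrophage marker sums of 25.5 to 34.26 CPM in the combination lay below those of cisplatin columns 4 and 5. Of 4 tested macrophage markers 0 were called with all libraries, and their part was not tested.

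The combination against CBLB502 in kidney called 7 serpins higher of 32, against 14.9% of all genes, and 4 lower, against 8.98%. Serpina10 was at 3.94, 3.48 and 3.62 CPM against 0.514, 0.632 and 0.717, 5.93-fold higher (2.56 ± 0.75, adjusted p = 0.0284), and Serpina7 at 1.52, 0.529 and 0.72 against 0.148, 0.232 and 0.0963, 5.8-fold higher (2.52 ± 0.79, adjusted p = 0.0374). Serpinb6a rose 2.15-fold (1.11 ± 0.30, adjusted p = 0.0213), Serpinb9 1.63-fold, and Serpina1a, Serpina1c and Serpina1d 1.96-fold, 1.81-fold and 2.05-fold. Serpinf1 fell from 3.18, 2.33 and 3.45 to 1.15, 0.519 and 0.442 CPM, 4.24-fold (-2.08 ± 0.58, adjusted p = 0.0226), Serpini1 fell 2.82-fold and Serpinb8 1.96-fold. Serpina6 fell from 0.287, 0.169 and 0.353 CPM to no count, at least 26.8-fold lower over the group. With any 1 library of these arms left out, 0 to 3 serpins were called, a range given without the share of all genes in those fits.

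**Figure D4:**
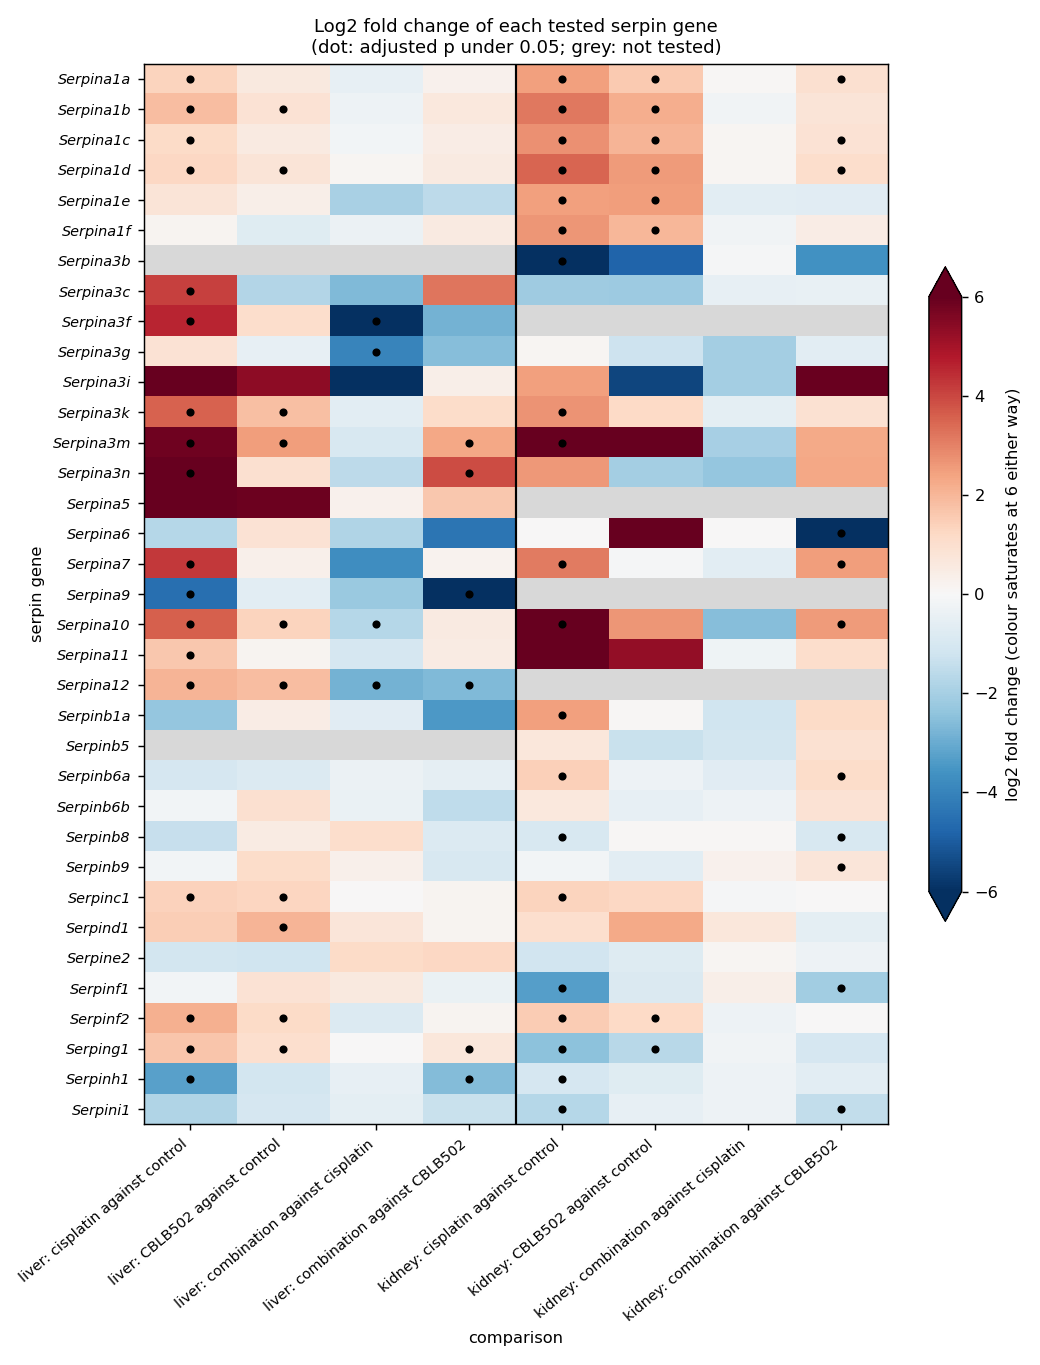
Log2 fold change of 35 serpin genes tested in liver or kidney (rows) in the 8 comparisons within a tissue (columns), red for higher and blue for lower, with a dot where the adjusted p is under 0.05 and grey where the gene was not tested. Dots fill the antitrypsin rows in kidney for cisplatin and CBLB502 against control, and the column of kidney combination against cisplatin has none; colours of genes with no count in a whole group give a direction and not a size.

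Between tissues, the mean of the kidney arms was compared with that of the liver arms over all 24 libraries. Of 37 tested serpins 21 were lower in kidney, against 23.9% of all 21570 genes, and 10 were higher, against 31.4%. In the order of the fitted log2 fold change, the liver end was Serpina6 (1176-fold lower in kidney), Serpina11 (1425-fold), Serpina12 (1143-fold), Serpina3m (590-fold), Serpind1 (883-fold) and Serpina3k (1001-fold). The kidney end was Serpina1f, 236-fold higher in kidney (7.64 ± 0.51, adjusted p = 6.75e-11), at 0.707, 0 and 0 CPM in control liver and 22, 29.4 and 18 in control kidney, each on its tissue's scale, and with no overlap over all arms. Serpinb1a was 7.27-fold higher, Serpinh1 6.34-fold and Serpinb6b 5.56-fold, and of these Serpinb6b alone did not overlap between tissues over all arms. Serpinb8, Serpinb9, Serpine2, Serpinb6a, Serpinb5 and Serpina3b made up the other calls higher in kidney, all with overlap. Serpinb5 had means of 0.0518 to 0.198 CPM over the kidney arms, on the scaling of all 24 libraries, and its call was lost without kidney control library 2. Serpina3b had no count in liver, and its kidney means on the scaling of all 24 libraries were 2.75 CPM in controls and at most 0.108 in treated arms. Of Serpina1a to Serpina1e, Serpina1d and Serpina1a differed least between tissues: they were 28.1-fold and 116-fold lower in kidney, against 737-fold for Serpina1e.

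Whether a drug moved a serpin differently in the 2 tissues was tested as a difference of effects. For cisplatin against control, a comparison added after the data were seen, 7 of 37 serpins had a higher effect in kidney, against 7.75% of all genes, and 4 a lower one, against 6.44%. Serping1 showed opposite directions, 3.14-fold higher in liver and 5.52-fold lower in kidney (difference of log2 fold changes -4.05 ± 0.49, adjusted p = 5.59e-05). Serpinb1a read 2.73, 2.25 and 0 CPM in control liver and 0.0674, 0.218 and 0.707 in cisplatin liver, while it rose in kidney (4.78 ± 1.14, adjusted p = 0.00832), and Serpinb6a, not called in liver, also differed (2.47 ± 0.56, adjusted p = 0.0065). Serpina1d (2.31 ± 0.43, adjusted p = 0.00162), Serpina1c (1.62 ± 0.39, adjusted p = 0.00872) and Serpina1b (1.39 ± 0.42, adjusted p = 0.0308) rose more in kidney than in liver. The call of Serpina1b was lost without liver control library 2, kidney control library 1 or 2, or kidney cisplatin column 4 (highest adjusted p = 0.0975). The median difference of the 6 hepatocyte markers was 1.67, with 1 of them called higher in kidney, and their part was not tested. Serpinf1, which fell in kidney and was not called in liver, differed (-3.09 ± 0.69, adjusted p = 0.00546), and Serpinh1 fell more in liver (2.27 ± 0.54, adjusted p = 0.00862). Serpina10 rose more in kidney (4.20 ± 1.05, adjusted p = 0.0111). Serpina5 had no count in control liver and none in cisplatin kidney, and its call, lower in kidney, rests on that. In a fit of the 12 libraries of these arms alone a single serpin, Serping1, was called. The share of all genes called in that fit is not given here, so the count describes the setting.

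The combination against CBLB502 differed between tissues in 2 of 37 serpins upward in kidney, against 4.08% of all genes, and in 1 downward, against 2.87%. Control libraries are on neither side of this comparison but were part of the fit. Serpinb1a was at 3.42, 2.02 and 1.42 CPM with CBLB502 and 0.33, 0.0733 and 0.224 with the combination in liver, and at 6.34, 6.23 and 8.64 and 15, 15.8 and 16.8 in kidney (4.53 ± 1.09, adjusted p = 0.0157). The difference for Serpinh1 was 1.93 ± 0.54 (adjusted p = 0.0328) and for Serping1 -1.74 ± 0.48, adjusted p = 0.0309. The calls of Serpinh1 and Serping1 were lost in 10 of 12 fits that leave out 1 library.

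**Figure D5:**
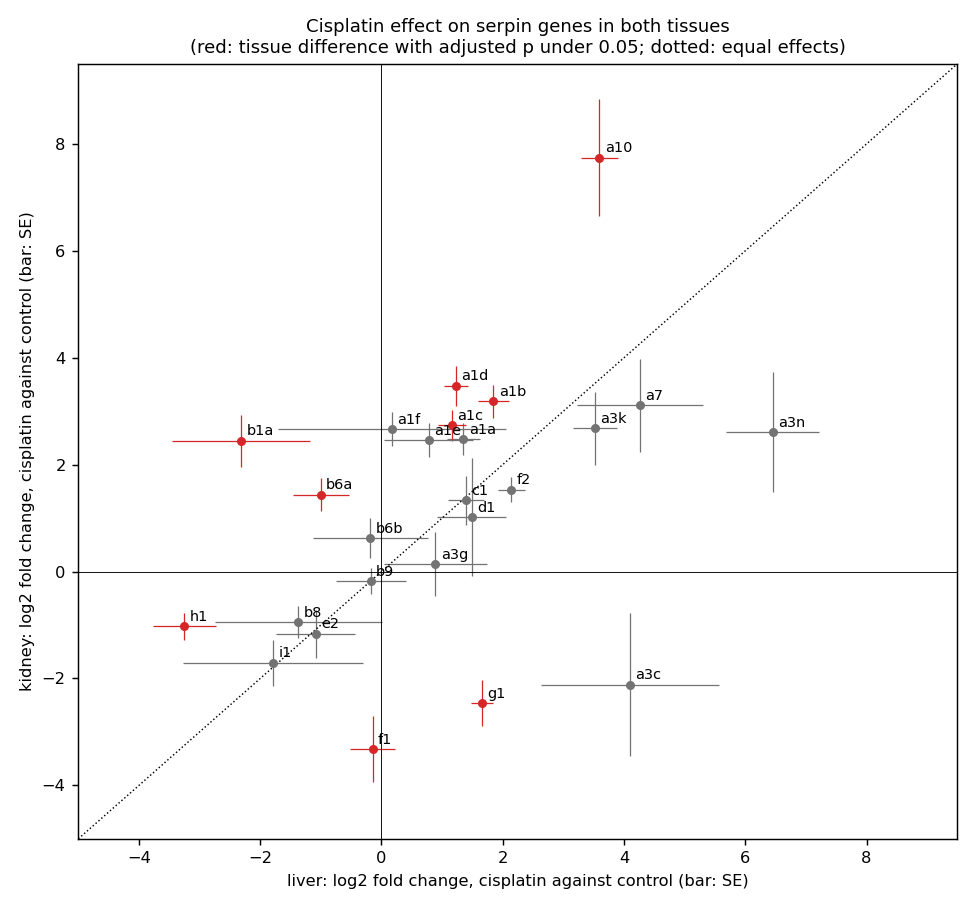
Cisplatin effect (log2 fold change against control, bars are SE) in liver on the x axis and in kidney on the y axis for 25 serpin genes with counts in all 4 of these groups; names leave out the prefix Serpin. Red points have a tissue difference with an adjusted p under 0.05: Serping1 lies at 1.65 and -2.46, Serpinb1a and Serpinb6a lie above the dotted line of equal effects, and Serpinh1 is lower in both tissues.

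The proteases, cofactors and regulators around the serpins were followed as lists chosen with earlier results of these data known. Of 20 tested target proteases 7 rose in cisplatin liver and 1 fell, with a median log2 fold change of 0.83, beside 25.6% and 17.5% of all tested genes; in cisplatin kidney those shares were 24.1% and 15.2%. Prothrombin (F2), which antithrombin inhibits, went from a mean of 349.2 to 1963 CPM (2.49 ± 0.25, adjusted p = 2.39e-05) and plasminogen (Plg), whose product antiplasmin inhibits, from 467.8 to 1638 CPM (1.81 ± 0.21, adjusted p = 5.41e-05). In kidney 6 of 20 rose with cisplatin and 4 fell, with a median of 0.32. Of 26 tested inhibitors from other families 12 rose in cisplatin liver and 4 fell (median 1.39), and 15 of 27 rose and 3 fell in kidney (median 1.31). The plasma inhibitor Itih4 rose in liver from 314 to 5037 CPM (4 ± 0.45, adjusted p = 4.84e-05) and was lower in the combination, at 1499 CPM (-1.75 ± 0.41, adjusted p = 0.0434). Wfdc2 rose in kidney from 19.87 to 310.2 CPM (3.96 ± 0.43, adjusted p = 5.43e-05). Of 8 cofactors and receptors, 1 rose in cisplatin liver, the adhesive plasma protein vitronectin (Vtn), from 565.3 to 2271 CPM (2.01 ± 0.28, adjusted p = 0.000166). In kidney 2 rose and 4 fell, among them the urokinase receptor Plaur, which rose (3.67 ± 0.86, adjusted p = 0.00568), and thrombomodulin (Thbd), which fell (-2.44 ± 0.37, adjusted p = 0.000435). Of 15 tested regulators of acute-phase and hepatocyte transcription 11 rose in cisplatin liver and none fell (median 1.42), among them the cytokine-signalling inhibitor Socs3 (3.49 ± 1.02, adjusted p = 0.0162). In kidney 5 of 14 rose (median 0), with the acute-phase factor Cebpd going from 3.354 to 89.81 CPM (4.78 ± 0.74, adjusted p = 0.000517) and Socs3 from 3.491 to 77.66 CPM (4.53 ± 0.85, adjusted p = 0.00167). The combination against cisplatin called 1 of these 15 regulators in liver and 0 of 14 in kidney.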

How the data were processed

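RNA of liver and kidney was sequenced in 24 libraries, 3 per tissue and arm. The authors deposited gene counts, whole numbers per gene that are not normalised, beside 24 columns of FPKM that were not used. Among the authors' tools are cutadapt 1.9 and FastQC, per the submitters' processing notes. Their aligner, counter, strand setting and build are not given in the sources used here. Groups come from the labels; treated kidney columns carry numbers 4 to 6 and were tied to their group only. Counts were tested with edgeR 4.0.16 (R 4.3.3; filterByExpr, TMM scaling, quasi-likelihood test, Benjamini-Hochberg adjustment over all tested genes, threshold 0.05), with the 12 libraries of a tissue in a fit and all 24 for comparisons of tissues. The script was tested on simulated data. CPM use TMM-scaled library sizes within a tissue. Folds between tissues, kidney levels as a percentage of liver, and levels marked so use the scaling of all 24 libraries. The SE of a log2 fold change was taken from its F statistic. A fold against an empty group uses a floor of 3 counts over the group, and floors cover counting error only. Per-length levels divide CPM by the longest coding transcript of GENCODE vM21; coding sequences were aligned with MAFFT. Alternatives were DESeq2 1.42.0, median-of-ratios scaling, no low-count filter, mitochondrial genes and copies left out, the arms compared alone, a replicate block in liver, and each library left out. Depth is the counts outside mitochondrial genes, which limits the controls most. Named with values were, in each comparison within a tissue, up to 6 called members with the largest change, no overlap and at least 1 CPM in the higher group, up to 6 at each end between tissues, and 24 members whatever their result; 1 of them is counted with the family and otherwise not reported here; other serpins named were chosen after their values were seen. The members and lists were chosen with earlier results of these data known.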

Additional observations from a re-analysis of the deposited data

Results flagged for a closer look

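The effect of a drug differed between kidney and liver by a direct test for these serpins (difference of log2 fold changes, kidney minus liver, edgeR). For cisplatin against control, the antitrypsins differed by 2.31 ± 0.43 (Serpina1d, adjusted p = 0.00162), 1.62 ± 0.39 (Serpina1c, adjusted p = 0.00872) and 1.39 ± 0.42 (Serpina1b, adjusted p = 0.0308), and the factor Xa inhibitor Serpina10 by 4.2 ± 1.05 (adjusted p = 0.0111). The intracellular inhibitors Serpinb1a and Serpinb6a differed by 4.78 ± 1.14 (adjusted p = 0.00832) and 2.47 ± 0.56 (adjusted p = 0.0065). Serping1 differed by -4.05 ± 0.49 (adjusted p = 5.59e-05), Serpinf1 by -3.09 ± 0.69 (adjusted p = 0.00546) and the collagen chaperone Serpinh1 by 2.27 ± 0.54 (adjusted p = 0.00862). The fitted difference of Serpina5, -15.54 (adjusted p = 0.0231), rests on groups with no count and gives a direction, not a size. For the combination against CBLB502, Serpinb1a differed by 4.53 ± 1.09 (adjusted p = 0.0157), Serpinh1 by 1.93 ± 0.54 (adjusted p = 0.0328) and Serping1 by -1.74 ± 0.48 (adjusted p = 0.0309). The call of Serpinb1a in that comparison was lost without kidney CBLB502 column 5.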

How the results depend on the processing

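Counts of serpins called moved with the setting. They are given here without the share of all genes called in the same fit. They thus describe the settings and are not a result about serpins against other genes. For liver combination against cisplatin, 4 serpins became 0 with the arms compared alone, 10 with DESeq2 and 0 to 19 with a library left out; for liver combination against CBLB502, 6 became 23, 13 and 2 to 4. For kidney combination against cisplatin, 0 became 3 with DESeq2 and 0 to 5 with a library left out, and for kidney combination against CBLB502, 11 became 7 with no low-count filter, 18 with the arms compared alone and 0 to 3 with a library left out. The tissue difference for the combination against CBLB502 went from 3 to 10 with the arms compared alone, 6 with DESeq2 and 0 to 2 with a library left out; that for cisplatin against control went from 11 to 1 and 10 to 13. With a library left out the other counts were 19 to 24 (liver cisplatin against control), 8 to 10 (liver CBLB502), 17 to 24 (kidney cisplatin), 7 to 11 (kidney CBLB502) and 30 to 32 (kidney against liver). Among named serpins, 2 results without a call changed sign and were called under an alternative: Serpina6 in liver combination against cisplatin was 4.96 without cisplatin library 3 (-2.4 to 4.96 over single libraries left out), and the tissue difference of Serpinb8 for cisplatin was -9.03 without liver control library 1 (-9.03 to 1.79); the cause was not tested. Sign changes that were called in neither fit are not counted here. Of 113 called results of named serpins, 106 kept their call with median-of-ratios scaling, 108 with no low-count filter, 108 without mitochondrial genes, 111 of 112 with DESeq2, 69 of 86 with the arms compared alone and 33 of 35 with the replicate block in liver; 82 of the 113 kept it with each library left out in turn and 31 lost it at least once. With the replicate block in liver, serpins called were 19 and 10 (cisplatin and CBLB502 against control) and 4 and 5 (combination against cisplatin and CBLB502). Deviations of same-numbered liver libraries from their group means correlated at -0.098 to 0.27 (median 0.033). Those of differently numbered libraries correlated at -0.287 to 0.221 (median -0.02). With 3 libraries a group these ranges cannot tell whether a number stands for a shared batch or mouse. In kidney the replicate block was planned for column numbers that match the labels, which those of the treated columns do not, and it was not run. Depth outside mitochondrial genes limits the controls: a gene at 0 there may be below detection.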

Other observations

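Serpina4-ps1, a serpin row of pseudogene type and so outside the family counts, was high in control liver, at 274.1, 924 and 470 CPM. It read 53.59, 244 and 95.17 CPM with CBLB502, 4.895, 8.695 and 2.069 with cisplatin and 8.854, 9.261 and 7.345 with the combination. It fell 106.5-fold with cisplatin (log2 fold change -6.74 ± 0.78, adjusted p = 5.781e-05), 4.248-fold with CBLB502 (-2.09 ± 0.63, adjusted p = 0.02901), and was 15.42-fold lower in the combination than with CBLB502 (-3.95 ± 0.69, adjusted p = 0.006487), all in edgeR's quasi-likelihood test.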
